A study of Mus musculus with 17 samples.

Results

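The genes described here are 35 members of the machinery that repairs broken or mispaired DNA, followed across 17 exon arrays of 32D, a mouse cell line of early myeloid character. They were taken by name from a list, and every one of the 35 was measured among 20227 genes in all. The list holds 7 genes of classical end joining, Polq of the alternative end joining route, 7 genes of base excision and single-strand break repair, 7 of homologous recombination, 8 of break sensing and checkpoint signalling, 3 of the Fanconi anaemia pathway and 2 of mismatch repair. The value of a gene is the mean log2 signal of its probe sets, each of which reads 1 exon or part of one. Members had between 6 and 96 probe sets in use, with a median of 25 against 9 over all genes. In the array annotation Mre11 is written Mre11a and Rad51d is written Rad51l3.

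FLT3 is a receptor tyrosine kinase of blood progenitors, and internal tandem duplications (ITD) in it are activating mutations of leukaemia. Parental 32D cells (2 arrays), cells with the empty retroviral vector pLXRN (2) and cells transduced with human wild-type FLT3 (2) grew in mouse IL-3 at 1 ng/mL, the cytokine this line depends on. A second set of the wild-type cells (2 arrays) was cultured with 20 ng/mL FLT3 ligand according to the growth protocol, while the titles of these samples can be read as cells transduced with the ligand. The protocol is followed here, and every comparison with ligand rests on that reading. The labels do not state outright whether IL-3 was also present there. The remaining 9 arrays came from 9 lines, each with a different human FLT3/ITD mutant and grown with no IL-3, and they are numbered 1 to 9. In any comparison of ITD with a control group, the mutant receptor and the absence of IL-3 therefore cannot be told apart. Each transduced line was a population made by retroviral infection, not a single clone. The titles call the paired arrays of a control group biological replicates, but nothing in the labels says whether they are separately made lines or cultures of 1 line. The p-values measure the spread between these arrays.

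Cells rejoin a double-strand break in several ways. Classical end joining seals the ends directly through the Ku proteins, the DNA-dependent protein kinase and ligase IV at any stage of the cell cycle, whereas homologous recombination copies the missing sequence from the sister chromatid and so works in cells that have replicated their DNA. Base excision repair removes single damaged bases, mismatch repair corrects replication errors, the Fanconi proteins clear crosslinks, and the kinases ATM and ATR with the checkpoint kinases CHK1 and CHK2 pass the alarm on to the cell cycle. Many recombination, Fanconi and checkpoint genes are known to be transcribed mainly in dividing cells, and signalling from mutant FLT3 has been linked in leukaemia to replication stress and to altered use of these routes.

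The promoters of 4 members are shown because these genes differed most clearly among the 5 groups, with the smallest adjusted p in an F test over the groups among members that have an entry in the promoter table (Parp2 0.000162, Chek1 0.0011, Mre11 0.00494 and Lig3 0.00572, all from limma). The sequences are from RefSeq on GRCm38.p6, run 5′ to 3′ along the gene's own strand and cover 250 bases before and 50 bases after the annotated start. Of the 35 members 29 had an entry. Capitals mark the letters of the motifs searched, and lower case is all other sequence. Parp2 lies at chr14:50807666-50807965 on the plus strand, Chek1 at chr9:36726609-36726908 on the minus strand, Mre11 at chr9:14784404-14784703 on the plus strand and Lig3 at chr11:82780859-82781158 on the plus strand.
Parp2: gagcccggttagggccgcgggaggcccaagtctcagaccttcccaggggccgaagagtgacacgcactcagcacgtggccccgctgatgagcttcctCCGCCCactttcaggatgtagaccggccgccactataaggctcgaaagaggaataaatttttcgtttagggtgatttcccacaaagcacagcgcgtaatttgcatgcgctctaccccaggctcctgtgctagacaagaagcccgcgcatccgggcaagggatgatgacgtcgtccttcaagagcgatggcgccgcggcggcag
Chek1: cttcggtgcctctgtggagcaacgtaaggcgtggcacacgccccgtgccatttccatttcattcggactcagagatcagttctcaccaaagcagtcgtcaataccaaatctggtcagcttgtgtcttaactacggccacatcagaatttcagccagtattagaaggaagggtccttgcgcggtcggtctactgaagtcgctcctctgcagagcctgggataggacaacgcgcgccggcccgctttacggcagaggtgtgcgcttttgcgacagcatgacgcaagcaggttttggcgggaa
Mre11: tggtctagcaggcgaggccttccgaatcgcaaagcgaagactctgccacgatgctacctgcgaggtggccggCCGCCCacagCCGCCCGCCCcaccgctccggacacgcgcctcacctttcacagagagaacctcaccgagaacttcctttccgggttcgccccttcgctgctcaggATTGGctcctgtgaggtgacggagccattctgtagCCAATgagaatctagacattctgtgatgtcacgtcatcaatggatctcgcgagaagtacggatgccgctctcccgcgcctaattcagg
Lig3: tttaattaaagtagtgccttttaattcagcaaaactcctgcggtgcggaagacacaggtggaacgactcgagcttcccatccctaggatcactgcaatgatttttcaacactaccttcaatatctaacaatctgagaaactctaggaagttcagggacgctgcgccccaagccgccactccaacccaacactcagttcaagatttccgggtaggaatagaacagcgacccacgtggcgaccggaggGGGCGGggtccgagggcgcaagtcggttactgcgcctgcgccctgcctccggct

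The 6 motifs searched on both strands were TTTCGCGC and TTTGGCGC (E2F), TTTGAA and TTCGAA (the cell cycle homology region), CCAAT (NF-Y) and GGGCGG (Sp1). GGGCGG was present in 21 of the 29 member promoters, against 35.9% of 27025 promoters of all genes, and CCAAT in 14 of 29 against 37.9%. The other motifs were rare among members. TTTCGCGC was found in Rad51c alone (0.318% of all promoters), TTTGAA in Polq alone (18.1%), TTCGAA in Atr alone (1.57%), and TTTGGCGC in no member (0.537%). In the windows shown, counted from the start, Parp2 holds 1 GGGCGG on the minus strand at -153 and Lig3 holds 1 on the plus strand at -4. Mre11 holds 3 GGGCGG on the minus strand, the nearer pair of which overlap, and a CCAAT on the minus strand at -73 and on the plus strand at -38. None of the 6 motifs as spelled here is in the Chek1 window. Other spellings of the sites were not searched, so a promoter without a match may still hold one. The matches are of letters and were not tested as binding sites.

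On the log2 scale the median probe set read from 4.63 to 4.69 across arrays, and precision is limited by how many arrays there are. Flt3 read 5.12 to 5.37 on parental arrays and 5.15 to 5.24 with the vector. It read 6.73 to 6.79 with wild-type FLT3, 6.88 to 6.89 with ligand and 7.08 to 7.32 in the ITD lines. These values separate the groups labelled with FLT3 from the parental and vector arrays. They cannot tell whether ligand was added to the culture or transduced, or which mutant a line carried. The probe sets are of the mouse gene, and how well they read the human transcript was not tested. The filter on the mean over all arrays favours probe sets that read high in the FLT3 groups. Of 12 myeloblast markers 11 were measured, with a mean between 9.32 and 10.15 on every array, where Mpo, Prtn3 and Ctsg were high and Kit and Cd34 were low. The 6 measured lymphoid and 6 measured fibroblast markers had means between 5.71 and 6.47 on all arrays.

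ITD line 7 stood apart from the other 8 ITD lines in these genes. It was the lowest of the 9 lines for 23 of the 35 members and the highest for 2. Over all genes line 7 was the lowest for 16.8% and the highest for 17.9%, the largest share of any line at either end. The median member lay 0.42 below the ITD mean in line 7. When arrays were weighted by how closely they followed the fit, that of line 7 had the lowest weight of the 17, at 0.332. Relative to the IL-3 controls (the average of the 3 group means), the 35 members averaged -0.07 in line 7 and between 0.16 and 0.42 in the other lines. Genes of DNA replication and the G1/S transition (22 measured) averaged -0.19 in line 7 and between 0.06 and 0.48 in the others, and genes of mitosis (17 measured) averaged -0.01 against 0.18 to 0.57. Genes induced by p53 (14 measured) stood at 0.63 in line 7 and 0.64 in line 4, and between -0.19 and 0.27 in the other 7. Immediate-early and heat shock genes that respond to the handling of cells (9 measured) stood at 0.27 in line 7 and 0.42 in line 4, and between -0.70 and -0.01 in the other 7. The part of these lists in the low repair values was not tested.

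**Figure D1:**
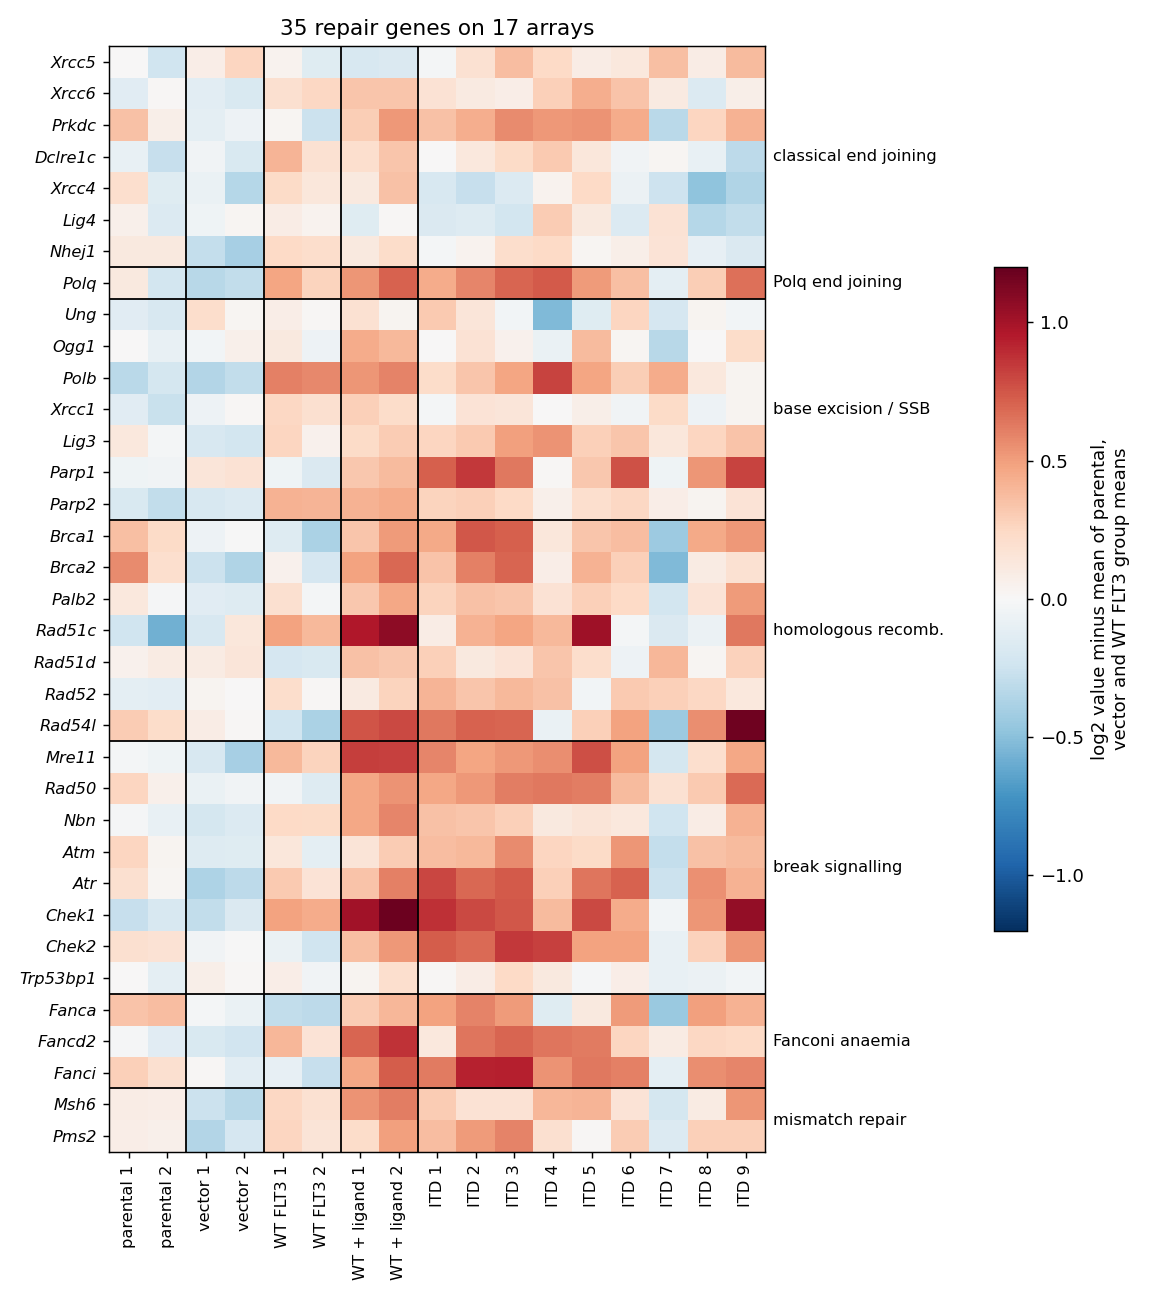
Values of the 35 repair genes (rows, grouped by pathway) on the 17 arrays (columns), as log2 value minus the average of the 3 IL-3 group means (parental, vector, wild-type FLT3), red for higher and blue for lower. Red predominates on the ligand arrays and in 8 ITD lines for recombination, signalling and Fanconi genes, the classical end joining rows other than Prkdc are mostly pale, and ITD line 7 is mostly pale or blue.

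Against the 3 groups grown with IL-3, the ITD lines carried more transcript of break signalling, Fanconi and some base excision genes, while most classical end joining genes did not pass the test. The comparison sets the 9 ITD arrays against those 3 groups (n = 2 each), averaged with equal weight. Of the 35 members 14 rose and none fell, against 11.2% of all 20227 genes higher and 8.15% lower (limma, called at an adjusted p under 0.05, by Benjamini-Hochberg across the whole table). By pathway, 5 of 8 signalling genes rose (median difference 0.46 on the log2 scale), 2 of 3 Fanconi genes (0.40), 4 of 7 base excision and single-strand break genes (0.18), 1 of 7 recombination genes (0.27), 1 of 7 classical end joining genes (0.05), Polq (0.46) and neither mismatch repair gene (0.25). The median over the 35 members was 0.27 and over all genes -0.01. In bulk samples, a larger share of cells that express a gene and more RNA per cell cannot be told apart.

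Each of the 14 differences was below 1 on the log2 scale, and no member separated all 9 ITD arrays from all 6 arrays of these controls (0.974% of all genes did so upwards and 1.39% downwards). Without line 7 the count was 23 (23.7% of all genes in either direction), and these held all 14. With each control pair averaged to 1 line, which lets the differences between the 3 control groups count as spread, only Rad50 was called (0.49 ± 0.11, adjusted p 0.0407, 2.3% of all genes), and without the vector group 8 members were called (12.3%).

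**Figure D2:**
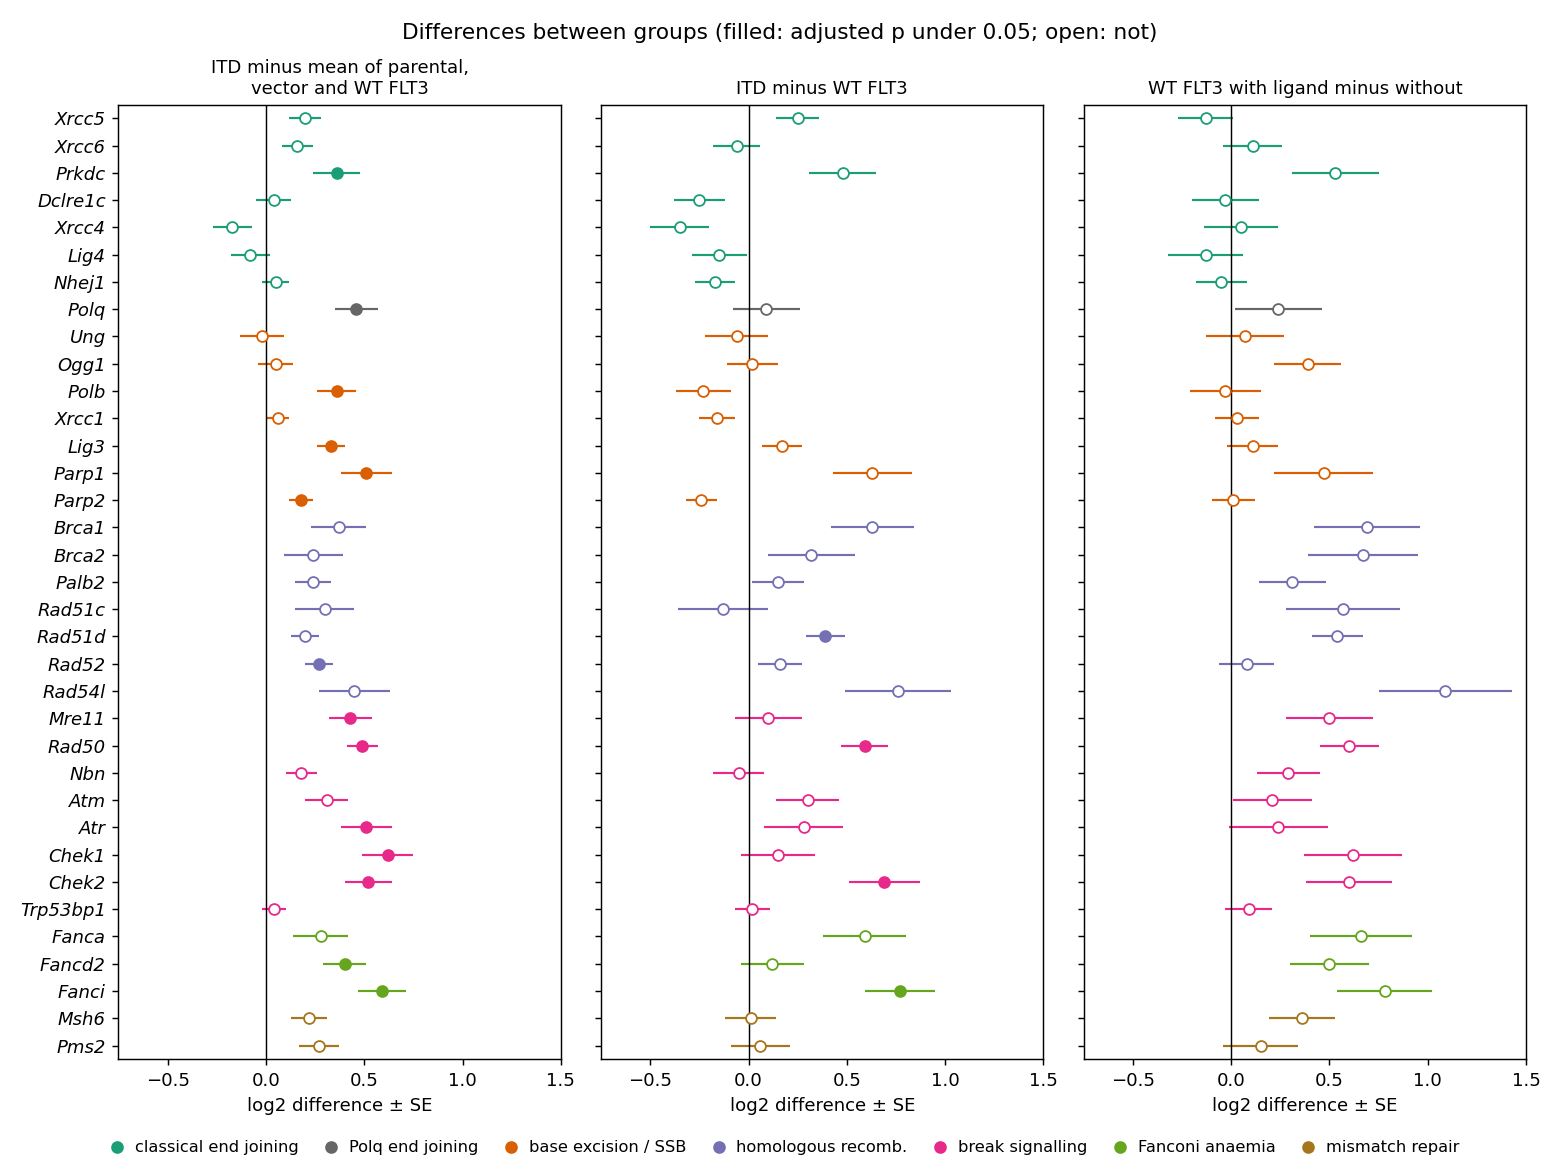
Fitted log2 difference with its standard error (SE) for each of the 35 genes in 3 comparisons, coloured by pathway, with filled points for adjusted p under 0.05. In the first panel 14 points are filled, all to the right of 0, in the second 4 and in the third none. The largest differences in the third panel are 1.09 among recombination genes (Rad54l) and 0.78 among Fanconi genes (Fanci).

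The genes that detect a broken end included the smallest adjusted p among the members in this comparison. Rad50, whose product forms the break-binding complex with MRE11 and NBN, read 8.65 and 8.45 on the parental arrays, 8.31 and 8.35 with the vector, 8.35 and 8.24 with wild-type FLT3, 8.86 and 8.93 with ligand, and 8.57, 8.91 and 9.07 (lowest, median and highest) in the ITD lines. Every ITD line lay above the vector and wild-type arrays, 8 of 9 lay above all 6 IL-3 controls, and line 7 fell between the parental arrays. Rad50 was higher in the ITD lines by 0.49 ± 0.08 (SE, adjusted p 0.000344), and 29 of its 30 probe sets pointed the same way.

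Mre11, the nuclease of the complex, read 9.04 and 9.01 in parental cells, 8.87 and 8.66 with the vector, 9.45 and 9.33 with wild-type FLT3, 9.89 and 9.88 with ligand, and 8.85, 9.54 and 9.83 in the ITD lines. Of the 9 ITD lines 7 were above all 6 IL-3 controls, and both ligand arrays were above every ITD line. The difference from these controls was 0.43 ± 0.11 (adjusted p 0.0145), and the call was lost without the second vector array (adjusted p 0.0527) and without the vector group (0.28, adjusted p 0.187). Nbn, the adaptor of the same complex, was not called in any comparison: its ITD arrays ranged from 8.43 to 9.09 around a difference of 0.18 ± 0.08 (adjusted p 0.156).

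Among the kinases, Atr, which responds to stalled replication forks, read 8.72 and 8.55 in parental cells, 8.16 and 8.21 with the vector, 8.84 and 8.69 with wild-type FLT3, 8.87 and 9.13 with ligand, and 8.27, 9.17 and 9.33 in the ITD lines. All ITD lines exceeded the vector arrays, and 7 exceeded every IL-3 control. Atr rose by 0.51 ± 0.13 (adjusted p 0.0124), but without the vector group it stood at 0.34 (adjusted p 0.168). Atm, which responds to double-strand breaks, ranged from 7.71 to 8.57 in the ITD lines and missed the threshold at 0.31 ± 0.11 (adjusted p 0.0522).

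Chek1, the checkpoint kinase downstream of ATR, read 8.52 and 8.60 in parental cells, 8.50 and 8.62 with the vector, 9.28 and 9.24 with wild-type FLT3, 9.80 and 9.97 with ligand, and 8.76, 9.54 and 9.85 in the ITD lines. The ITD lines were all above the parental and vector arrays but straddled the wild-type arrays. Its difference of 0.62 ± 0.13 (adjusted p 0.00289) was the largest among the 35 members in this comparison.

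Chek2, the kinase downstream of ATM, had a different order. It read 8.96 and 8.94 in parental cells, 8.72 and 8.76 with the vector, 8.68 and 8.52 with wild-type FLT3, 9.12 and 9.28 with ligand, and 8.67, 9.29 and 9.61 in the ITD lines. Apart from line 7, every ITD line was above all 6 IL-3 controls. Chek2 rose by 0.52 ± 0.12 (adjusted p 0.00506) with all 17 of its probe sets positive, whereas Trp53bp1, whose product steers breaks toward end joining, differed by 0.04 ± 0.06 (adjusted p 0.727).

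The Fanconi genes Fanci and Fancd2 encode the pair of proteins that is loaded together at crosslinks. Fanci read 7.64 and 7.55 in parental cells, 7.37 and 7.23 with the vector, 7.26 and 7.08 with wild-type FLT3, 7.82 and 8.08 with ligand, and 7.24, 7.96 and 8.29 in the ITD lines. Line 7 was the lowest, and the other 8 ITD lines were above every IL-3 control. Fanci rose by 0.59 ± 0.12 (adjusted p 0.0032), with all 43 probe sets positive.

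Fancd2 read 7.0 and 6.88 in parental cells, 6.83 and 6.79 with the vector, 7.41 and 7.18 with wild-type FLT3, 7.71 and 7.88 with ligand, and 7.11, 7.27 and 7.71 in the ITD lines. All ITD lines were above the parental and vector arrays and overlapped the wild-type arrays. The difference was 0.40 ± 0.11 (adjusted p 0.0141), and the call was lost without the second wild-type array (adjusted p 0.0559), the vector group (0.29, adjusted p 0.128) or the parental group (0.36, adjusted p 0.0583). Fanca, a core complex gene, was not called (0.28 ± 0.14, adjusted p 0.177), and its ITD arrays spread from 7.60 to 8.64.

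**Figure D3:**
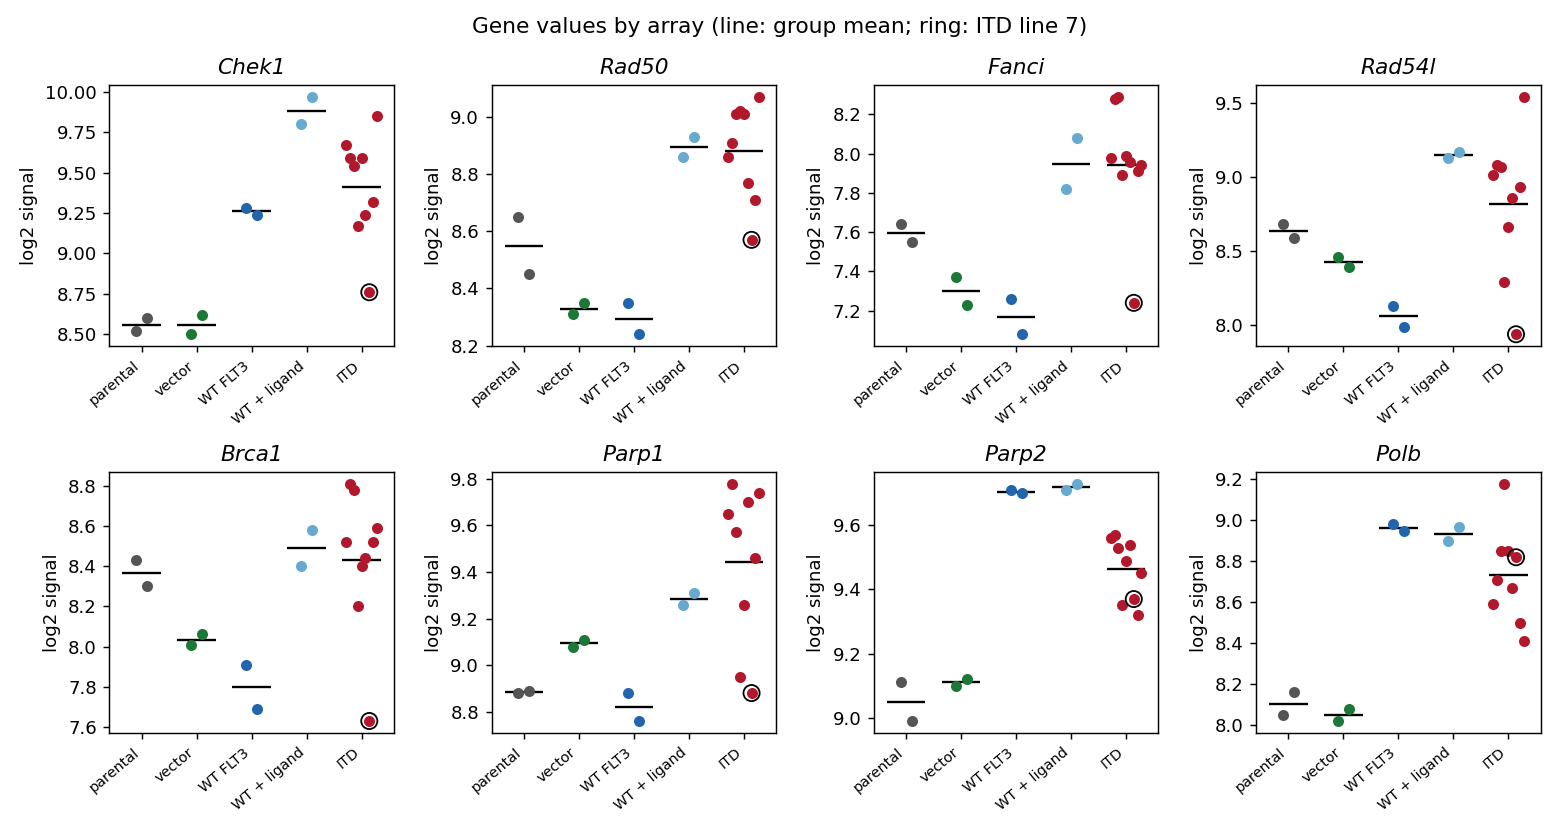
Log2 signal of 8 repair genes on each array, by group, with a line at the group mean and a ring around ITD line 7; each panel has its own scale. Parp2 and Polb are high with wild-type FLT3 with or without ligand, while Rad50, Fanci, Brca1 and Rad54l are low with wild-type FLT3 and high with ligand and in most ITD lines.

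Of the 7 base excision and single-strand break repair genes, 4 rose and 3 did not pass the test, and no difference between the steps of the pathway was tested. Among the glycosylase genes that open the pathway, Ung, which removes uracil, differed by -0.02 ± 0.11 (adjusted p 0.922) and Ogg1, which removes oxidised guanine, by 0.05 ± 0.09 (adjusted p 0.741). The scaffold gene Xrcc1 differed by 0.06 ± 0.06 (adjusted p 0.538). None of these 3 passed the test. The genes that rose were Polb, Lig3, Parp1 and Parp2.

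Parp1, the main enzyme that marks strand breaks with poly(ADP-ribose), read 8.88 and 8.89 in parental cells, 9.08 and 9.11 with the vector, 8.88 and 8.76 with wild-type FLT3, 9.26 and 9.31 with ligand, and 8.88, 9.57 and 9.78 in the ITD lines. Lines 7 and 4 lay among the controls, and the other 7 lines were above all 6 of them. Parp1 rose by 0.51 ± 0.13 (adjusted p 0.0117), with all 28 probe sets positive. With the median in place of the mean of its probe sets the difference was 0.40 (adjusted p 0.0613).

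Its relative Parp2 followed another pattern, with 9.11 and 8.99 in parental cells, 9.10 and 9.12 with the vector, 9.71 and 9.70 with wild-type FLT3, 9.71 and 9.73 with ligand, and 9.32, 9.49 and 9.57 in the ITD lines. The ITD lines formed a band of their own, above all parental and vector arrays and below all arrays with the wild-type receptor. The mean difference from the 3 IL-3 groups was thus small, at 0.18 ± 0.06 (adjusted p 0.0352), and was called in 5 of the 15 fits that left out 1 array. It stood at 0.06 (adjusted p 0.604) without the parental group and at 0.09 (adjusted p 0.435) without the vector group.

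Polb, the polymerase that fills the single-base gap, read 8.05 and 8.16 in parental cells, 8.02 and 8.08 with the vector, 8.98 and 8.95 with wild-type FLT3, 8.90 and 8.97 with ligand, and 8.41, 8.71 and 9.18 in the ITD lines. All ITD lines were above the parental and vector arrays, and all but line 4 were below the arrays with the wild-type receptor. Polb rose by 0.36 ± 0.10 (adjusted p 0.015), but not with the median of its probe sets (0.30, adjusted p 0.139) or without the parental group (0.22, adjusted p 0.195) or the vector group (0.20, adjusted p 0.283).

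Lig3, the ligase that works with XRCC1, read 8.16 and 8.01 in parental cells, 7.84 and 7.81 with the vector, 8.29 and 8.08 with wild-type FLT3, 8.26 and 8.34 with ligand, and 8.17, 8.35 and 8.57 in the ITD lines. The ITD lines were above the parental and vector arrays, and the first wild-type array lay within their range. Lig3 rose by 0.33 ± 0.07 (adjusted p 0.0025), and 26 of 28 probe sets were positive. Without the vector group the difference was 0.22 (adjusted p 0.066).

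In homologous recombination all 7 differences were positive, between 0.20 and 0.45, but only Rad52 was called. Rad52, a mediator of strand annealing, read 7.70 and 7.69 in parental cells, 7.85 and 7.82 with the vector, 8.03 and 7.83 with wild-type FLT3, 7.93 and 8.09 with ligand, and 7.79, 8.13 and 8.23 in the ITD lines. All ITD lines were above the parental arrays, all but line 5 above the vector arrays, and the first wild-type array lay within their range. Rad52 rose by 0.27 ± 0.07 (adjusted p 0.0138), and the call was lost without the second wild-type array (adjusted p 0.0601) and without the parental group (0.21, adjusted p 0.106).

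Other recombination genes had larger differences than Rad52 and a wider spread. Brca1, which promotes end resection, read 8.43 and 8.30 in parental cells, 8.01 and 8.06 with the vector, 7.91 and 7.69 with wild-type FLT3, 8.40 and 8.58 with ligand, and 7.63, 8.52 and 8.81 in the ITD lines. Rad54l, a motor protein that helps strand invasion, read 8.68 and 8.59, 8.46 and 8.39, 8.13 and 7.99, and 9.13 and 9.17 in the same order, and 7.94, 8.93 and 9.54 in the ITD lines. For both genes line 7 was below all 16 other arrays, and the differences of 0.37 ± 0.14 for Brca1 (adjusted p 0.0782) and 0.45 ± 0.18 for Rad54l (adjusted p 0.0931) were not called. Brca2, which loads the recombinase, and its partner gene Palb2 were each at 0.24 and were not called (adjusted p 0.274 and 0.0768).

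Classical end joining had the smallest median difference of the pathways. Prkdc, the catalytic subunit of the DNA-dependent protein kinase, read 7.92 and 7.64 in parental cells, 7.45 and 7.51 with the vector, 7.59 and 7.31 with wild-type FLT3, 7.87 and 8.09 with ligand, and 7.25, 8.01 and 8.14 in the ITD lines. Line 7 was the lowest of all 17 arrays, and the first parental array lay among the other ITD lines. Prkdc rose by 0.36 ± 0.12 (adjusted p 0.0401), was called in 4 of the 15 fits that left out 1 array, was lost without the vector group (0.31, adjusted p 0.143) or the wild-type group (0.30, adjusted p 0.125), and reached 0.44 (adjusted p 0.000341) without line 7.

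The Ku genes Xrcc5 and Xrcc6 differed by 0.20 ± 0.08 and 0.16 ± 0.08 (adjusted p 0.0776 and 0.176). Dclre1c, the nuclease Artemis, was at 0.04 ± 0.09, Nhej1, the accessory factor XLF, at 0.05 ± 0.07, the ligase gene Lig4 at -0.08 ± 0.10, and its scaffold Xrcc4 at -0.17 ± 0.10, all uncalled (adjusted p 0.79, 0.66, 0.628 and 0.274). Polq, the polymerase of the alternative route, read 6.78 and 6.44 in parental cells, 6.33 and 6.37 with the vector, 7.14 and 6.93 with wild-type FLT3, 7.19 and 7.37 with ligand, and 6.55, 7.18 and 7.40 in the ITD lines. Every ITD line exceeded the vector arrays, line 7 fell between the parental arrays, and the wild-type arrays lay within the ITD range. Polq rose by 0.46 ± 0.11 (adjusted p 0.00897), but without the vector group it stood at 0.30 (adjusted p 0.147).

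In mismatch repair, Msh6, which recognises the mispair, differed by 0.22 ± 0.09 (adjusted p 0.0941) and Pms2, the endonuclease subunit, by 0.27 ± 0.10 (adjusted p 0.0717). Neither passed the test here, and both did against the vector cells by themselves.

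Set against each control group by itself, the ITD lines gave different lists. These comparisons share the 9 ITD arrays and are given side by side. Against parental cells 7 members rose and none fell (10.3% and 6.72% of all genes). They were Polq, Polb, Parp2, Rad51c, Rad52, Chek1 and Fancd2. Against the vector cells 14 rose and none fell (8.82% and 5.21%), namely Nhej1, Polq, Polb, Lig3, Parp2, Mre11, Rad50, Atr, Chek1, Chek2, Fancd2, Fanci, Msh6 and Pms2. Polq, Polb, Parp2, Chek1 and Fancd2 were called in both, and no member was called against parental, vector and wild-type cells each. The shares of all genes called in these combinations were not counted. All ITD lines were above both parental arrays for 8 members (12.2% of all genes) and above both vector arrays for 11 (12.1%), and below them for none (9.17% and 9.66%). Under 9 other ways of processing or fitting the arrays, the calls of Polq and Fancd2 against parental cells were each kept in 3, and that of Rad51c in 4. The call of Chek2 against the vector was kept in 4, and the other calls against these groups in 7 to 9. Each of these calls was lost in at least 1 of the fits that left out an array, and the counts fell to 1 without the first parental array and to 0 without the second vector array.

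Chek1 differed most, by 0.85 ± 0.19 from parental and 0.86 ± 0.19 from vector cells (adjusted p 0.00488 and 0.00662). Atr followed against the vector at 0.85 ± 0.20 (adjusted p 0.00817), Polq at 0.78 ± 0.17 (adjusted p 0.00559) and Mre11 at 0.72 ± 0.17 (adjusted p 0.00892). Against the same 2 groups Polb differed by 0.62 ± 0.14 and 0.68 ± 0.14 (adjusted p 0.00537 and 0.00441). Single Polb probe sets differed from the vector group by -0.24 to 4.79, with a median of 0.50, so the gene value averages unequal exons.

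Rad51c, a paralogue of the recombinase, read 7.16 and 6.83 in parental cells, 7.21 and 7.54 with the vector, 7.89 and 7.79 with wild-type FLT3, 8.36 and 8.48 with ligand, and 7.23, 7.79 and 8.42 in the ITD lines. The ITD lines were above the parental arrays and overlapped all other groups. Rad51c was higher than in parental cells by 0.71 ± 0.23 (limma, adjusted p 0.0418), and by 0.55 without the second parental array. The call was lost without ITD line 2, 3, 4 or 9 (adjusted p 0.0526 to 0.0594). It was kept in 4 of 9 other ways of processing or fitting, and lost with the median of its probe sets (0.57, adjusted p 0.15).

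Nhej1 read 8.34 and 8.34 in parental cells, 7.93 and 7.82 with the vector, 8.46 and 8.43 with wild-type FLT3, 8.34 and 8.44 with ligand, and 8.05, 8.26 and 8.46 in the ITD lines. It was low in the vector cells alone, by 0.39 ± 0.10 below the ITD lines (adjusted p 0.0155) and by 0.56 ± 0.13 below wild-type FLT3 (adjusted p 0.0125). Without the second vector array the first of these had an adjusted p of 0.226.

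The mismatch genes were also low in the vector cells. Msh6 read 9.83 and 9.82 in parental cells, 9.49 and 9.41 with the vector, 9.99 and 9.93 with wild-type FLT3, 10.28 and 10.36 with ligand, and 9.53, 9.92 and 10.27 in the ITD lines. Pms2 read 7.81 and 7.79, 7.38 and 7.53, 7.99 and 7.89, and 7.95 and 8.22 in the same order, and 7.57, 8.02 and 8.33 in the ITD lines. Every ITD line was above the vector arrays for both genes, and the ligand arrays were above every ITD line for Msh6. The differences from the vector were 0.52 ± 0.13 for Msh6 and 0.55 ± 0.15 for Pms2 (adjusted p 0.015 and 0.0207), and without the second vector array the adjusted p was 0.185 and 0.113.

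The vector cells had the lowest of the 5 group means for 16 of the 35 members, against 20.7% of all genes. Compared with the parental cells directly, no member was called by limma (2.23% of all genes, 1.27% higher and 0.959% lower). In this limma comparison 3 members had an unadjusted p under 0.05, against 14.5% of all genes, and the smallest adjusted p was 0.0751, for Nhej1. Both vector arrays were below both parental arrays for 19 members and above them for 8, against 25.7% and 29.3% of all genes. A fit on these 4 arrays alone called 5 members lower and none higher (9.95% of all genes): Nhej1, Brca2, Atr, Fanca and Msh6. The spread in that fit is only that within these pairs of arrays.

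Cells with wild-type FLT3 grew in IL-3 without ligand, as did the vector cells, which lack the introduced receptor. The groups are also different lines, so an effect of the receptor and a difference between lines cannot be told apart. Polb, Parp2 and Nhej1 rose and no member fell (5.5% and 2.71% of all genes). Nhej1 was low in the vector cells, with a group mean of 7.88 against 8.34 in parental and 8.44 in wild-type cells. Polb was higher by 0.91 ± 0.18 (adjusted p 0.00528) and Parp2 by 0.60 ± 0.11 (adjusted p 0.00239), and of the 3 calls only that of Parp2 was kept without any 1 array. Both wild-type arrays were above both vector arrays for 21 members and below them for 7, against 33.3% and 24.6% of all genes. Of all genes called here 67% were higher, or 51.3% after quantile normalization. With only these 4 arrays in the fit 19 members were called (24.1% of all genes), and Parp1, Rad51d and Rad54l were the 3 that were lower. The spread in that fit is only that within these pairs of arrays.

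Relative to wild-type FLT3 without ligand, which also carries the receptor, 4 members rose in the ITD lines and none fell (3.27% and 4.44% of all genes). Of all genes called here 42.4% were higher, or 51.9% after quantile normalization, and 4 members were called with either. These were Fanci, Chek2, Rad50 and Rad51d. Fanci was higher by 0.77 ± 0.18 (adjusted p 0.0163), Chek2 by 0.69 ± 0.18 (adjusted p 0.024) and Rad50 by 0.59 ± 0.12 (adjusted p 0.00516). Rad51d, another recombinase paralogue, read 8.10 and 8.14 in parental cells, 8.14 and 8.19 with the vector, 7.84 and 7.86 with wild-type FLT3, 8.40 and 8.37 with ligand, and 7.98, 8.26 and 8.44 in the ITD lines. All ITD lines were above the wild-type arrays and overlapped the parental and vector arrays. The difference was 0.39 ± 0.10 (adjusted p 0.0314), with all 15 probe sets positive.

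Among uncalled members the largest differences were those of Rad54l at 0.76 ± 0.27 (adjusted p 0.0935), Brca1 at 0.63 ± 0.21 (adjusted p 0.0732), Parp1 at 0.63 ± 0.20 (adjusted p 0.06) and Fanca at 0.59 ± 0.21 (adjusted p 0.0977). By pathway the median difference was 0.59 for Fanconi, 0.32 for recombination, 0.21 for signalling, 0.03 for mismatch, -0.06 for base excision and -0.15 for classical end joining, against -0.04 over all genes. All 9 ITD lines were above both wild-type arrays for 3 members (Parp1, Rad50 and Rad51d, 5.57% of all genes) and below them for 1 (9.33%), Parp2, which differed by -0.24 ± 0.08 (adjusted p 0.0845). Without line 7 the count was 10 (12.2% of all genes), and without the first wild-type array it was 0.

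**Figure D4:**
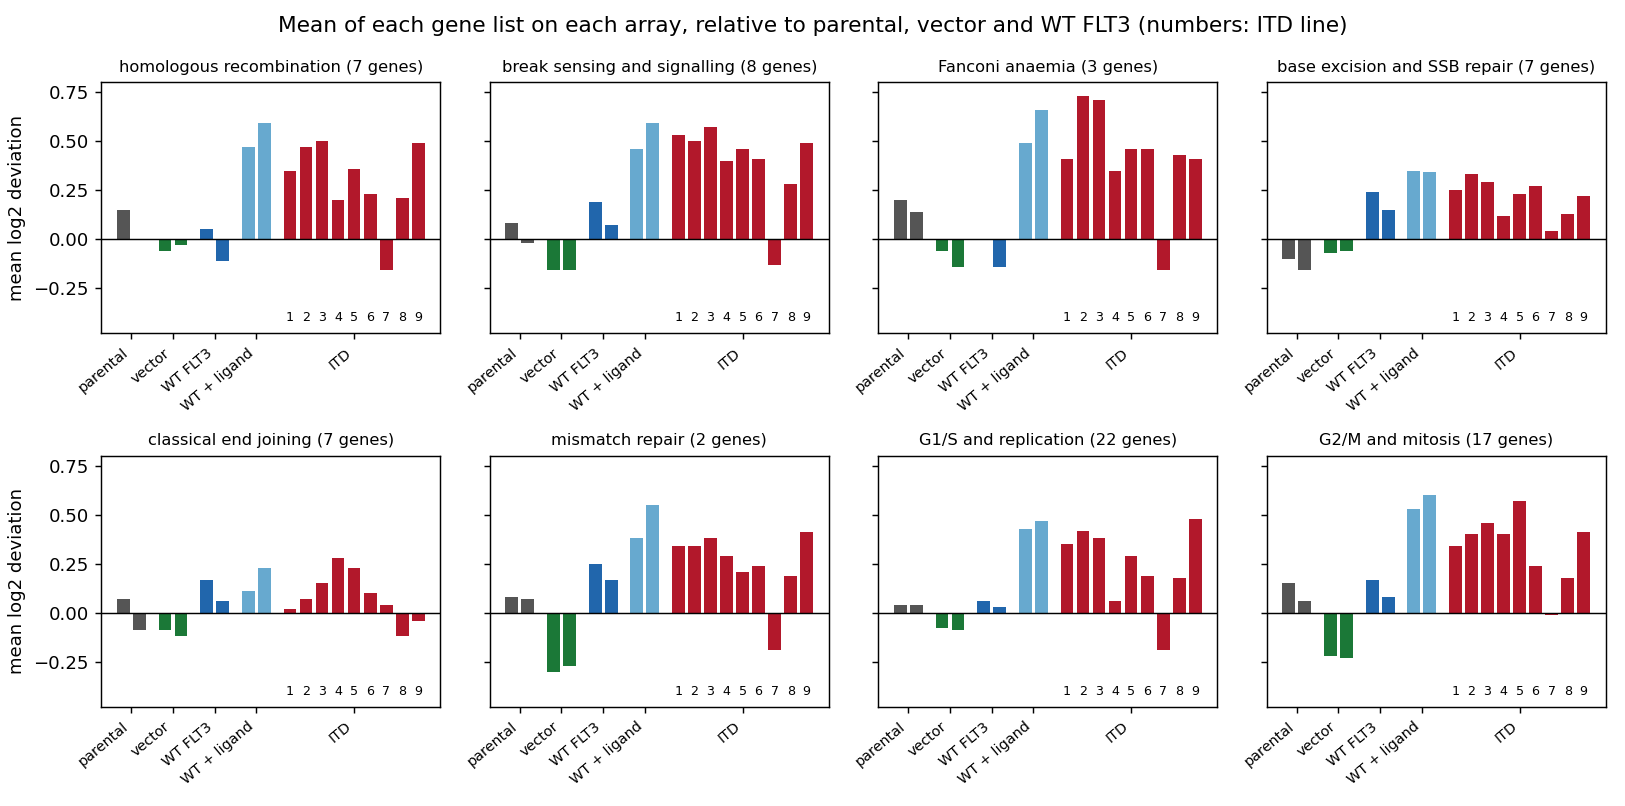
Mean of each gene list on each array, as log2 deviation from the average of the 3 IL-3 group means, with the ITD lines numbered 1 to 9. Recombination, signalling and Fanconi lists stand high with ligand and in 8 ITD lines, line 7 is the lowest ITD line in every list shown except classical end joining, which is lowest in line 8 (-0.12) and highest in line 4 (0.28).

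FLT3 ligand was added to the cells with the wild-type receptor, and this comparison asks what stimulation of the normal receptor does. In the fit over all arrays limma called no member and no gene at all, with 14 members at an unadjusted p under 0.05 (7.69% of all genes) and a smallest adjusted p of 0.416. Both ligand arrays were above both wild-type arrays for 22 of the 35 members, against 25% of all genes, and below them for 2, against 22.8%. The median difference was 0.66 for Fanconi genes, 0.57 for recombination, 0.39 for signalling, 0.25 for mismatch repair, 0.07 for base excision and -0.03 for classical end joining, and -0.01 over all genes.

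Rad54l differed most, by 1.09 ± 0.34 (adjusted p 0.466), from 8.13 and 7.99 to 9.13 and 9.17. Fanci was at 0.78, Brca1 at 0.69, Brca2 at 0.67, Fanca at 0.66 and Chek1 at 0.62. The spread used in this fit comes mostly from the 9 ITD lines, and a fit on the 4 wild-type and ligand arrays alone called 13 members higher and none lower (4.69% of all genes). They were Parp1, Brca1, Brca2, Rad51c, Rad51d, Rad54l, Mre11, Rad50, Chek1, Chek2, Fanca, Fanci and Msh6. In that fit Rad54l stood at 1.09 ± 0.09 (adjusted p 0.00159) and Chek1 at 0.62 ± 0.08 (adjusted p 0.00809). Its spread is only that within these pairs of arrays, which may be cultures of the same line, so its p-values do not measure differences between lines. Whether IL-3 was present with the ligand is not stated, so its absence may be part of this comparison.

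The group with ligand had the highest of the 5 group means for 23 of the 35 members, against 21.1% of all genes. Between the ITD lines and these cells limma called no member (5.8% of all genes, 1.72% higher and 4.08% lower). In this limma comparison 11 members had an unadjusted p under 0.05, against 19.2% of all genes. The smallest adjusted p was 0.0582, for Xrcc5, which was higher in the ITD lines by 0.38 ± 0.11. The ITD mean was the lower of the pair for 28 of 35 members and for 10742 of all 20227 genes. The median difference was -0.15 for the members and -0.02 over all genes. Xrcc5 was also the 1 member above both ligand arrays in all ITD lines, and 6 were below them in all lines (Ogg1, Parp2, Mre11, Nbn, Fancd2 and Msh6), against 4.47% and 9.07% of all genes. Rad51c lay furthest below, at -0.71 ± 0.23 (adjusted p 0.0844). Of all genes called in this comparison 29.6% were higher in the ITD lines, or 45.6% after quantile normalization.

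Repair genes outside the 35 were described in the same way. Of 73 further repair genes listed 64 were measured, and against the IL-3 groups 21 rose and 1 fell, with a median of 0.18. Over all genes 11.2% were higher and 8.15% lower in this comparison. Among the 64, 8 of 18 recombination genes rose, 5 of 8 Fanconi genes, 6 of 12 signalling genes, 2 of 8 end joining genes, 0 of 15 base excision genes and 0 of 3 mismatch genes. The largest rises were Gen1, a resolvase of crossed strands, at 0.73 ± 0.14 (adjusted p 0.00171), Rif1, an effector of 53BP1, at 0.57 ± 0.12 (adjusted p 0.00383), and Rad54b, a relative of Rad54l, at 0.57 ± 0.15 (adjusted p 0.0123). Shld1, a shieldin subunit that limits resection, fell by 0.20 ± 0.07 (adjusted p 0.0462).

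Against wild-type FLT3 alone 1 of the 64 rose and 2 fell, which is not above the shares over all genes (3.27% and 4.44%). Polm, an end joining polymerase, was higher by 0.59 ± 0.15 (adjusted p 0.0276), the glycosylase gene Nthl1 fell by 0.72 ± 0.15 (adjusted p 0.00769), and Rad9a, a subunit of the checkpoint clamp, fell by 0.33 ± 0.07 (adjusted p 0.0105). Of 12 nucleotide excision genes 3 rose and 1 fell against the IL-3 groups (11.2% and 8.15% of all genes). The fall was that of the damage sensor Xpc, by 0.51 ± 0.07 (adjusted p 9.38e-05), and the rises included Rad23b at 0.31 and Ercc8 at 0.28.

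Cell cycle genes moved in the same comparisons. Beside the counts below, 11.2% of all genes were higher against the IL-3 groups and 8.15% were lower. Against the IL-3 groups 12 of 17 mitosis genes rose (median 0.33), among them Cenpe by 0.56 and Ttk by 0.52, and 5 of 22 replication and G1/S genes rose (median 0.20), among them Ccne2 by 0.72 ± 0.15 (adjusted p 0.00349) and Mcm10 by 0.47 ± 0.07 (adjusted p 0.000355). With ligand their median differences were 0.41 and 0.38, beside 0.57 for recombination and 0.39 for signalling. Myeloblast markers went the other way, with 6 of 11 lower against the IL-3 groups, including Mpo, which fell by 0.88 ± 0.18 (adjusted p 0.00224). Against wild-type FLT3 alone 1 of these markers was higher and 2 were lower, with a median difference of -0.01. Of 14 genes induced by p53 2 rose against the IL-3 groups, beside 11.2% of all genes. They were Eda2r by 0.98 ± 0.20 (adjusted p 0.00267) and Aen by 0.42 ± 0.11 (adjusted p 0.0166). Against wild-type FLT3 alone no gene of the p53 list was called, and the median difference was -0.1. Of the 9 measured handling stress genes 4 fell against the IL-3 groups and none rose. Among them were Hmox1, the haem oxygenase, by 0.66 ± 0.17 (adjusted p 0.0105), Dusp1 by 0.62 ± 0.13 (adjusted p 0.00289) and Fosb by 0.53 ± 0.08 (adjusted p 0.000139). Of 6 lymphoid markers 1 fell, Cd3d by 0.53 ± 0.12 (adjusted p 0.00425), and of 6 fibroblast markers none was called (smallest adjusted p 0.212). The part of these lists in the repair results was not tested.

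The last comparison set the spread over the 9 ITD lines beside the spread within control pairs. The median SD over the ITD arrays was 0.23 for the 35 members and 0.20 for all genes, and the median SD within control pairs was 0.09 and 0.12. A one-sided F ratio of these spreads called 3 members against 2.55% of all genes. It sets 9 separately made lines against paired arrays that may be cultures of 1 line, so differences between mutants and differences between any separately made lines cannot be told apart. Fanca had an SD of 0.36 over the ITD lines and 0.04 within control pairs (ratio 73.2, adjusted p 0.0396), Rad54l 0.47 and 0.06 (ratio 54.7, adjusted p 0.0447) and Parp1 0.34 and 0.05 (ratio 48.5, adjusted p 0.0471). Fanca read 8.38 and 8.41 in parental cells, 8.02 and 7.96 with the vector, 7.75 and 7.73 with wild-type FLT3, 8.35 and 8.44 with ligand, and 7.60, 8.52 and 8.64 in the ITD lines.

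Line 7 was the lowest ITD line for all 3 of these genes, and line 4 was the next lowest, at 7.90 for Fanca, 8.29 for Rad54l and 8.95 for Parp1. Line 9 had the highest Rad54l, at 9.54. Without line 7 none of the 3 was called, and the same held without any single control array, which leaves 1 pair fewer for the comparison. The least variable members were Parp2 and Xrcc1, each with an SD of 0.10 over the ITD lines, and Trp53bp1 with 0.11.

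**Figure D5:**
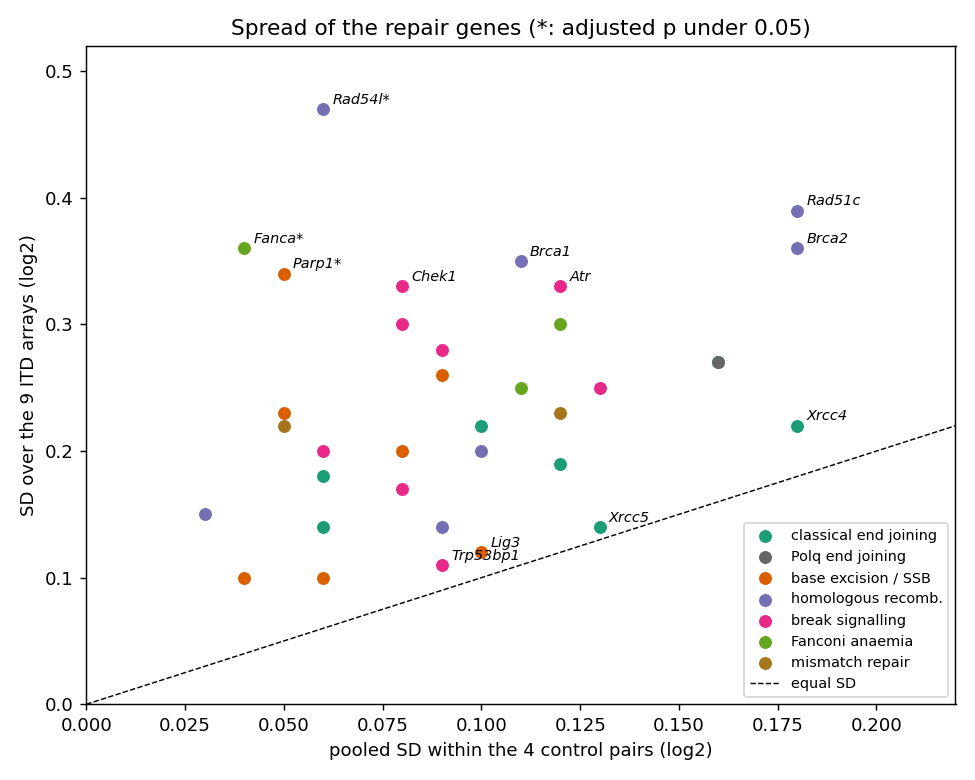
SD over the 9 ITD arrays against the pooled SD within the 4 control pairs for each of the 35 genes, both in log2 units, with a dashed line at equal SD and an asterisk at the 3 called genes. Every gene lies above the line, with Rad54l, Fanca and Parp1 farthest above it for their control spread.

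In all, 19 members were called in at least 1 of the 8 comparisons between groups and 16 in none. The share of all genes called in at least 1 of them was not counted, and single comparisons called from 0% to 19.4% of all genes. The count of 19 is therefore a description only. An F test of any difference among the 5 groups called 18 members (26.8% of all genes), including Xrcc5, Xrcc1 and Nbn, which no single comparison called. The 16 without a call were Xrcc5, Xrcc6, Dclre1c, Xrcc4, Lig4, Ung, Ogg1, Xrcc1, Brca1, Brca2, Palb2, Rad54l, Nbn, Atm, Trp53bp1 and Fanca. Their differences from the IL-3 groups ranged from -0.17 for Xrcc4 to 0.45 for Rad54l, and none of these passed the test.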

How the data were processed

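RNA from 17 cultures was hybridised to Affymetrix Mouse Exon arrays. The authors deposited 1 log2 signal for each probe set and array. The submitters' processing notes name RMA and Affymetrix Expression Console 1.1. The genome build and any probe set filter are not given in the sources used here. Of 1256831 probe sets 318760 carried exactly 1 gene symbol in the platform annotation. Symbols were updated through a RefSeq table (18006 of 22296 were current, 4227 changed, 63 unmatched). Probe sets with a mean over the 17 arrays above 4.599, the median over all, were averaged per gene (237584 probe sets, 20227 genes). Group means were fitted to all 17 arrays with limma 3.58.1 in R 4.3.3 (eBayes with a trend, 12 residual and 4.49 prior degrees of freedom). The 9 ITD lines supply most of that spread. Differences were tested two-sided, with Benjamini-Hochberg adjustment over all genes. Variation among ITD lines was tested by a one-sided F ratio (8 and 4 degrees of freedom) to the spread within the 4 control pairs. The scripts were checked on simulated data. The members and all gene lists were chosen with earlier results of these data known, so counts over them are descriptions.

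By rule, every member called in at least 1 comparison between groups was described by array, with up to 3 called genes per direction from the wider repair list and up to 3 per context list. Alternatives covered the probe set filter and summary, normalization, array weights, the arrays fitted, a replicate block and leaving out each array. Replicate numbers are not known to pair the arrays. The deviations of same-numbered arrays correlated between -0.118 and 0.092 over genes, which cannot show whether cultures were handled in pairs. The 931387 probe sets without a symbol and 6684 with several were not used here, and neither was the sequence of proteins.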

Additional observations from a re-analysis of the deposited data

Results flagged for a closer look

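In 6 of the 35 repair genes the lowest ITD array stood apart from the other 8, with a gap to the next array that exceeded Dixon's 95% critical value for the gap divided by the range. Chance alone gives a flag, at either end, for about 1 in 20 groups tested. Over all 20227 genes the lowest ITD array stood apart in this way for 4.74% and the highest for 2.62%. In all 6 the array was that of ITD line 7, which was the outlying lowest array for 1.58% of all genes. Prkdc, the kinase of end joining, read 7.25 in line 7 and 7.83 in the next lowest line. Atm and Atr, the signalling kinases, read 7.71 and 8.27 there against 8.23 and 8.81. Nbn, of the break-binding complex, read 8.43 against 8.76, Palb2, the partner of BRCA2, 6.80 against 7.18, and Fanci 7.24 against 7.89. The 6 values come from 1 culture on 1 array, and no second array of this mutant was analysed here.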

How the results depend on the processing

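Across the 42 called differences of single genes, no alternative turned a direction. Other settings kept 384 of 443 calls and lost 59, and leaving out 1 array kept 397 of 497 and lost 100. In the counts of members called that follow, the percentage after a count is the share of all genes called under the same setting. Against the 3 IL-3 groups there were 14 (19.4%), and 24 with array weights (31%), 1 with control pairs averaged (2.3%), 8 without the vector group (12.3%), and 10 to 23 without 1 array. Against parental cells there were 7 (17%), and 4 with no filter (14.1%), 4 without the trend (15.9%), 16 with weights (25.4%), 4 with only those groups fitted (12.8%), and 1 to 15 without 1 array. Against vector cells there were 14 (14%), and 9 with probe set medians (11%), 25 with weights (31.5%), and 0 to 20 without 1 array. Against wild-type FLT3 there were 4 (7.71%), and 12 with weights (20.9%, 1 of the 12 lower), 2 with only those groups fitted (4.17%), and 0 to 10 without 1 array. Against the cells with ligand there were 0 (5.8%), and 1 with no filter (4.71%, lower), 1 after quantile normalization (5.62%, higher), 11 with weights (17.1%, 10 of the 11 lower in the ITD lines), and 0 to 4 without 1 array. For ligand against none there were 0 (0%), and 8 with weights (2.21%), 13 with only those groups fitted (4.69%), and 0 to 0 without 1 array. For wild-type FLT3 against vector there were 3 (8.22%), and 5 with the stricter filter (11.5%), 16 with weights (22%), 19 with only those groups fitted (24.1%), and 1 to 2 without 1 array. For vector against parental there were 0 (2.23%), and 1 after quantile normalization (3.37%), 3 with weights (10.5%), 5 with only those groups fitted (9.95%), all lower, and 0 to 0 without 1 array. Of genes called for vector against parental 57% were higher, or 44.7% with arrays centred on their medians. The F test called 18 (26.8%), 32 with weights (47.3%), and 11 to 27 without 1 array. Variation among ITD lines called 3 (2.55%), 0 with probe set medians (0.247%), 1 with no filter (1.43%), 16 with squeezed variances (18.4%), and 0 to 4 without 1 array. Fitting fewer arrays changes the spread used by construction; otherwise the cause was not tested.

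The replicate block was fitted on the 8 control arrays, where the replicate numbers are not known to pair the samples. With the block 12 members were called for ligand (4.27%), 17 for wild-type FLT3 against vector (21.7%) and 5 for vector against parental (12%), and the same arrays with no block gave 14 (5.68%), 19 (23%) and 5 (13.7%). A crossed pairing, chosen after seeing the data along with that unblocked fit, gave 16 (7.77%), 19 (25.9%) and 10 (16.8%).

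With 2 arrays in each control group the calls describe these cultures, and most of the spread behind them comes from the 9 mutants. Signal over background was not used here, and the filter on probe set means stands in for it.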
